A study of Mus musculus with 12 samples.

Results

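The DNA repair and damage checkpoint genes described here are 38 genes chosen by name for what their products do. All 38 had a row in the deposited expression table of 15651 genes, and all 38 passed the filter on low values. They span homologous recombination (9 genes), damage sensing and checkpoint signaling (10), base excision and single-strand break repair (5), end joining (4), the Fanconi anemia pathway (3), mismatch repair (3), nucleotide excision repair (3) and translesion synthesis (1). Expression was measured by RNA sequencing in c-Kit+ splenocytes, spleen cells enriched for the stem cell factor receptor Kit, of mice with acute myeloid leukemia (AML). The experiment asked how transcription responds to CCS1477, a small molecule that binds the bromodomains of the acetyltransferases p300 and CBP. Each mouse gave both a CCS1477 and a DMSO (solvent) culture, kept for 6 hours, so that 12 libraries form 4 groups of 3.

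*D/F* mice carried *Dnmt3a* fl/fl, *Flt3* ITD/ITD and *Mx1Cre*, and *T/F* mice carried *Tet2* fl/fl, *Flt3* ITD/ITD and *Mx1Cre*. Every group therefore shared the internal tandem duplication of the receptor *Flt3* and the interferon-inducible Cre. Cre was not induced on purpose, and spontaneous deletion of 1 or both floxed alleles in blood cells was relied on, so the share of deleted cells is not known. Spleens came from moribund mice, 3 per genotype, and the purified cells were kept in medium with SCF, IL-6 and IL-3. CCS1477 was used at 4 µM in *D/F* cells and at 2 µM in *T/F* cells, so genotype and dose cannot be told apart in any difference between the responses. The ages of the mice are not given in the sources used here. Values are TPM, an abundance per transcript length relative to all transcripts of a library, so a change in the total RNA of a cell would not be seen. In such bulk samples, fewer cells of a type and less RNA per cell cannot be told apart.

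A cell meets DNA damage with sensors, signaling kinases and a set of repair routes that each recognise a kind of lesion. Double-strand breaks are bound by the Mre11-Rad50-Nbn complex or by the Ku heterodimer, and are then repaired from the sister chromatid by homologous recombination or rejoined directly. Damaged or mispaired bases are removed by base excision, mismatch and nucleotide excision repair, while Atm, Atr, Chek1 and Chek2 hold the cell cycle. Dividing progenitors of the blood depend on these routes during replication, and many of the genes are transcribed most in cycling cells.

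In the fit that did not pair the cultures by mouse, most of these genes did not pass within a genotype, 36 of 38 in *D/F* and 22 of 38 in *T/F*. Those that did pass went both ways, as did all genes. In *D/F*, 1 of 38 was higher (*Msh3*) and 1 was lower (*Apex1*) at an adjusted p under 0.05, where 5.14% of all tested genes were higher and 6.51% were lower. In *T/F*, 7 were higher (*Rad51c*, *Rbbp8*, *Fanca*, *Msh3*, *Msh6*, *Nbn* and *Lig4*) and 9 were lower (*Palb2*, *Exo1*, *Pms2*, *Chek1*, *Mre11a*, *Xrcc6*, *Parp1*, *Apex1* and *Ung*), against 25.8% and 17.6% of all tested genes. All adjusted p-values are from limma on log2(TPM + 1) with Benjamini-Hochberg adjustment over every gene tested. Scaling each library to its median gene gave 4 higher and 11 lower in *T/F*, where it called 20.6% of all genes higher and 20.7% lower. The *D/F* median log2 change of the 38 genes was −0.07 and the *T/F* median −0.02, beside 0.06 and 0.07 over all genes, in that order. On the log2(TPM + 1) scale, *Apex1* was the only one of the 38 that passed above 2-fold, downward in both genotypes. By this measure 4.61% of all *D/F* and 4.7% of all *T/F* tests were lower, and 2.67% and 2.63% higher. *Rad51c* was called in *T/F* with a change of 0.98 on this scale, while its mean rose from 5.35 to 11.5 TPM.

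Paired by mouse, the *D/F* cells gave more calls. With the mouse as a block, 2 genes were higher in *D/F* (*Msh3* and *Rad51c*) and 7 lower (*Apex1*, *Exo1*, *Atm*, *Mre11a*, *Xrcc5*, *Xrcc6* and *Xpc*), where 21.4% and 18% of all genes were called. In *T/F* the block gave 8 higher and 11 lower, against 31.2% and 22.9% of all genes. Over all 6 mice with genotype as a covariate, 8 were higher (*Rad51c*, *Bard1*, *Rbbp8*, *Fanca*, *Msh3*, *Msh6*, *Lig4* and *Ercc1*) and 9 lower (*Exo1*, *Pms2*, *Atm*, *Chek1*, *Mre11a*, *Xrcc6*, *Parp1*, *Apex1* and *Ung*), against 25.8% and 19.6% of all genes. Scaling to the median gene gave 5 higher and 10 lower in that fit, against 23.2% and 22% of all genes. With the mouse as a block the same fit gave 9 higher and 11 lower, against 34.5% and 25.9%, and added *Nbn* (log2 change 0.25, adjusted p = 0.0772 without and 0.0309 with the block), *Xrcc5* (−0.34, 0.248 and 0.00327) and *Xpc* (−0.37, 0.1 and 0.000357, all by limma). Counted mouse by mouse, 8 of the 38 were higher in all 6 mice and 11 were lower in all 6, where 31.8% and 24.2% of all genes were. The *D/F* calls rested on its mice: without *D/F* replicate 1 or without replicate 3 no gene of the table was called. Without replicate 2 there were 2 higher and 2 lower of the 38, beside 2092 higher and 1647 lower of all 15191 genes tested. Of the 16 genes called in *T/F*, 5 kept their call in each of the 11 alternatives run, namely *Rad51c*, *Exo1*, *Msh3*, *Lig4* and *Apex1*. The others lost it in at least 2 of them. Leaving out *T/F* replicate 1 or replicate 2 left 3 higher and 2 lower of the 38, with 5 and 7 without replicate 3. Calls over all genes also dropped, from 3935 higher and 2685 lower of 15256 tested. They were 1936 and 1537 of 15254 without replicate 1, and 1748 and 1444 of 15253 without replicate 2. Without replicate 3 they were 2921 and 2201 of 15189.

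**Figure D1:**
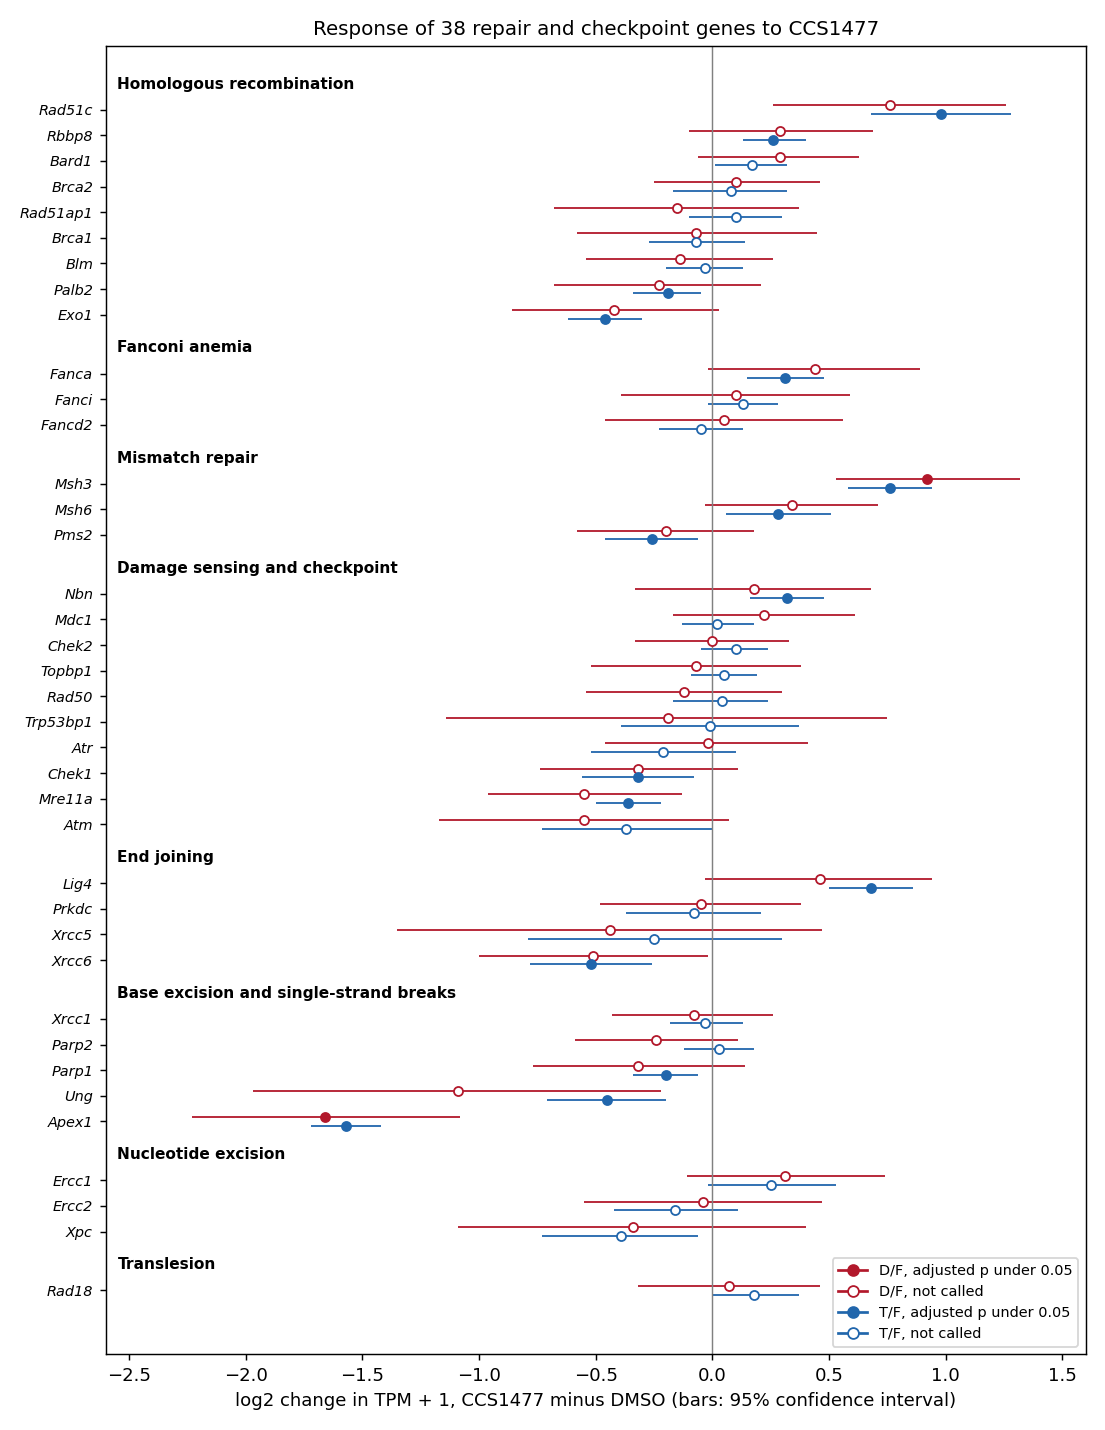
Change of each of the 38 genes under CCS1477, as the log2 difference in TPM + 1 from DMSO, in *D/F* (red, 4 µM) and *T/F* (blue, 2 µM), grouped by role. Bars are 95% confidence intervals from 3 mice a group, and filled points have an adjusted p under 0.05. *Apex1* lies farthest to the left at −1.66 and −1.57, *Msh3* and *Rad51c* lie farthest to the right, and the *D/F* intervals are wider than those of *T/F*.

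Sequence just upstream of the transcription start is shown for 4 of the genes, because their changes are followed below. *Apex1*, *Parp1* and *Xrcc5* carry the E-box hexamer CACGTG, which Myc with Max and other factors of this class can bind, and *Brca1* shares its upstream stretch with a neighbor that rose while *Brca1* was not called. Each sequence is from RefSeq (GRCm38), read 5′ to 3′ on the strand of the gene, ends at the base before the RefSeq start and was trimmed to the part with no annotated exon. Capitals mark the E-box CACGTG and, read on either strand, the CCAAT box.
*Apex1*, chr14:50924894-50924948, plus strand, 55 bases: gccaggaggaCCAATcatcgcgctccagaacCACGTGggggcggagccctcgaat
*Parp1*, chr1:180568641-180568890, plus strand, 250 bases: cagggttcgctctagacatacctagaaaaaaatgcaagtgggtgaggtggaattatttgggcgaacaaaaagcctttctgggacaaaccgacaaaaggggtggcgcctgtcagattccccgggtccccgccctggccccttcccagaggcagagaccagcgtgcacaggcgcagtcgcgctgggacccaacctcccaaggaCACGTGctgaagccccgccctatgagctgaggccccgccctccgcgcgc
*Xrcc5*, chr1:72307171-72307420, plus strand, 250 bases: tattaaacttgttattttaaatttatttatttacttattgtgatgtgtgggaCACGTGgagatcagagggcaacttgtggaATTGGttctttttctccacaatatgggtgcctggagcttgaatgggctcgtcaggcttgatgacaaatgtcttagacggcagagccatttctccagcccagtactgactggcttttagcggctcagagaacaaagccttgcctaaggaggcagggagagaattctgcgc
*Brca1*, chr11:101551956-101552148, minus strand, 193 bases: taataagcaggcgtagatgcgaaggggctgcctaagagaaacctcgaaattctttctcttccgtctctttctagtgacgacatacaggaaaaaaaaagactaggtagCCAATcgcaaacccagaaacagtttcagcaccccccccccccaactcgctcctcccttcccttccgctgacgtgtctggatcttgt
Counting the start as position 0, the E-box began at position −24 in *Apex1*, at −49 in *Parp1* and at −198 in *Xrcc5*. *Apex1* held 2 further copies, at positions 0 and 21. Of the 31 genes with an entry in the promoter table, 4 (12.9%) held CACGTG within the 300 bases around the start, beside 11.3% of the 10622 genes of the expression table with an entry. *Apex1*, *Parp1* and *Xrcc5* were lower in all 6 mice, as were 24.2% of all genes. *Parp2*, the fourth, with the hexamer at −179, was lower in 3 of 3 *D/F* mice and higher in 2 of 3 *T/F* mice. An E2F-type octamer (TTTCCCGC, TTTGGCGC or TTTCGCGC on either strand) stood in 9 of the 31 (29.0%), namely *Brca2*, *Rad51c*, *Bard1*, *Msh3*, *Msh6*, *Chek2*, *Mdc1*, *Topbp1* and *Xrcc6*, beside 3.91% of the 10622. CCAAT stood in 16 (51.6%), beside 43.1%, and TGACGTCA, the cyclic AMP response element, in *Brca2* and *Rad51c* (6.45%, beside 3.33%). The CHR motif TTTGAA was in 1 of the 31 (3.23%, beside 14.9%) and TATAAA in 4 (12.9%, beside 9.01%). Such matches describe letters in a window and do not show that a factor bound there. The transcript of *Myc* itself ranged from 230 to 468 TPM under DMSO and from 17.8 to 27.1 TPM under CCS1477, and its part in the levels of the repair genes was not tested.

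In base excision repair the products of *Ung* and *Apex1* act one after the other. *Ung* encodes the glycosylase that removes uracil from DNA, and *Apex1* the endonuclease that cuts the strand at the baseless site left behind. *Apex1* (chr14:50924968-50927139, GRCm38, plus strand) stood at 114, 117 and 145 TPM in the *D/F* DMSO cells and at 39.4, 28.9 and 51.1 TPM under CCS1477. The *T/F* libraries went from 147, 137 and 142 TPM to 45.9, 48.5 and 47.1 TPM. Each treated library lay below every DMSO library of its genotype. The mean *Apex1* level in *D/F* was 125 ± 17.4 TPM (SD, n = 3) under DMSO and 39.8 ± 11.1 TPM under the drug, a log2 change of −1.66 ± 0.24 (SE, adjusted p = 0.0127 by limma). The *T/F* means were 142 ± 4.69 and 47.2 ± 1.27 TPM, a log2 change of −1.57 ± 0.06 (adjusted p = 0.000242 by limma). The exact permutation test of 3 libraries against 3 gave p = 0.1 in each genotype, the smallest this design allows, and it did so for every gene below whose groups did not overlap. Without *D/F* replicate 1 or replicate 3 the log2 change was −1.73 or −1.74, with an adjusted p of 0.156 or 0.177 by limma. Under DMSO *Apex1* was the most abundant of the 38 genes in both genotypes.

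*Ung* was described after its values were seen. It stood at 21.1, 28.1 and 29.0 TPM under DMSO in *D/F* and at 13.5, 6.28 and 17.8 TPM under CCS1477. The groups did not overlap, and replicate 2 had the lowest treated value and a DMSO value near the top of its group. The log2 change in *D/F* was −1.09 ± 0.36 (adjusted p = 0.0999 by limma), which did not pass. Without *D/F* replicate 2 it was −0.64 (adjusted p = 0.105 by limma), and without replicate 1 or replicate 3 it was −1.34 or −1.30. *Ung* in *T/F* fell from 25.2 ± 3.39 to 18.0 ± 0.61 TPM (log2 change −0.45, adjusted p = 0.0161 by limma), and it lost that call without *T/F* replicate 1 (adjusted p = 0.081) or replicate 2 (adjusted p = 0.0795).

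*Parp1*, *Parp2* and *Xrcc1* act at single-strand breaks. *Parp1* (chr1:180568924-180601254, plus strand), which marks broken DNA with chains of ADP-ribose, stood at 99.0, 97.5 and 114 TPM in *D/F* under DMSO and at 84.7, 67.3 and 99.6 TPM under CCS1477. In *T/F* the values were 110, 108 and 114 TPM and then 95.4, 95.9 and 96.0 TPM. The groups were apart in *T/F* and overlapped in *D/F*, although each of the 6 mice had less *Parp1* with the drug. *Parp1* fell in *T/F* by 0.20 ± 0.06 on the log2 scale (adjusted p = 0.0308 by limma), and the change in *D/F* was −0.32 ± 0.19 (adjusted p = 0.314 by limma). The *T/F* call was lost without any 1 of the 3 mice, where the adjusted p by limma reached 0.173. The related enzyme *Parp2* had a log2 change of −0.24 (*D/F*) and 0.03 (*T/F*), and the scaffold *Xrcc1* of −0.08 and −0.03, none of which passed. All 5 genes of this group had a negative change in *D/F* and 4 of 5 did in *T/F*. Over all genes, 7005 of 15501 (*D/F*) and 6531 of 15256 (*T/F*) had a negative change. In *T/F* 3 of the 5 were called lower, beside 17.6% of all genes. Of the 16 further base excision and single-strand break genes with a row, 11 had a positive change in each genotype. Over all genes, 8496 of 15501 (*D/F*) and 8725 of 15256 (*T/F*) did. The median log2 changes of the 16 were 0.10 (*D/F*) and 0.19 (*T/F*), beside 0.06 and 0.07 over all genes. In *T/F* 6 of them were higher and 2 lower, beside 25.8% and 17.6% of all genes. In *D/F* 0 were higher and 1 lower, beside 5.14% and 6.51%.

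Of the 3 mismatch repair genes, 2 were higher and 1 lower in *T/F*, beside 25.8% and 17.6% of all genes. In *D/F* 1 was higher and none lower, beside 5.14% and 6.51%. *Msh3*, the subunit that recognises insertion and deletion loops, was the only gene of the 38 called higher in both genotypes without the block. *Msh3* (chr13:92211872-92355003, minus strand) stood at 11.5, 14.6 and 10.7 TPM under DMSO in *D/F* and at 23.6, 23.1 and 25.4 TPM under CCS1477. The *T/F* cells stood at 13.2, 12.1 and 13.4 TPM and then at 22.9, 21.1 and 23.6 TPM. Every treated library was above every DMSO library, across genotypes as well as within them. *Msh3* rose by 0.92 ± 0.17 on the log2 scale in *D/F* (12.3 ± 2.07 to 24.0 ± 1.18 TPM, adjusted p = 0.0228 by limma). The *T/F* rise was 0.76 ± 0.07 (12.9 ± 0.676 to 22.5 ± 1.30 TPM, adjusted p = 0.00104 by limma). Without *D/F* replicate 1 or replicate 3 the *D/F* change was 0.90 or 0.80 with an adjusted p of 0.243 or 0.286 by limma. *Msh6*, the subunit that recognises base mispairs, was more abundant than *Msh3* under DMSO (64.8 ± 8.18 TPM in *D/F* and 60.3 ± 5.67 in *T/F*). Its log2 change was 0.34 in *D/F*, which did not pass, and 0.28 in *T/F* (adjusted p = 0.0497 by limma), a call lost in 7 of 11 alternatives. *Pms2*, the endonuclease subunit that acts after recognition, changed by −0.20 in *D/F*, which did not pass, and by −0.26 in *T/F* (adjusted p = 0.0484, and 0.0575 with the mouse as a block, both by limma).

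**Figure D2:**
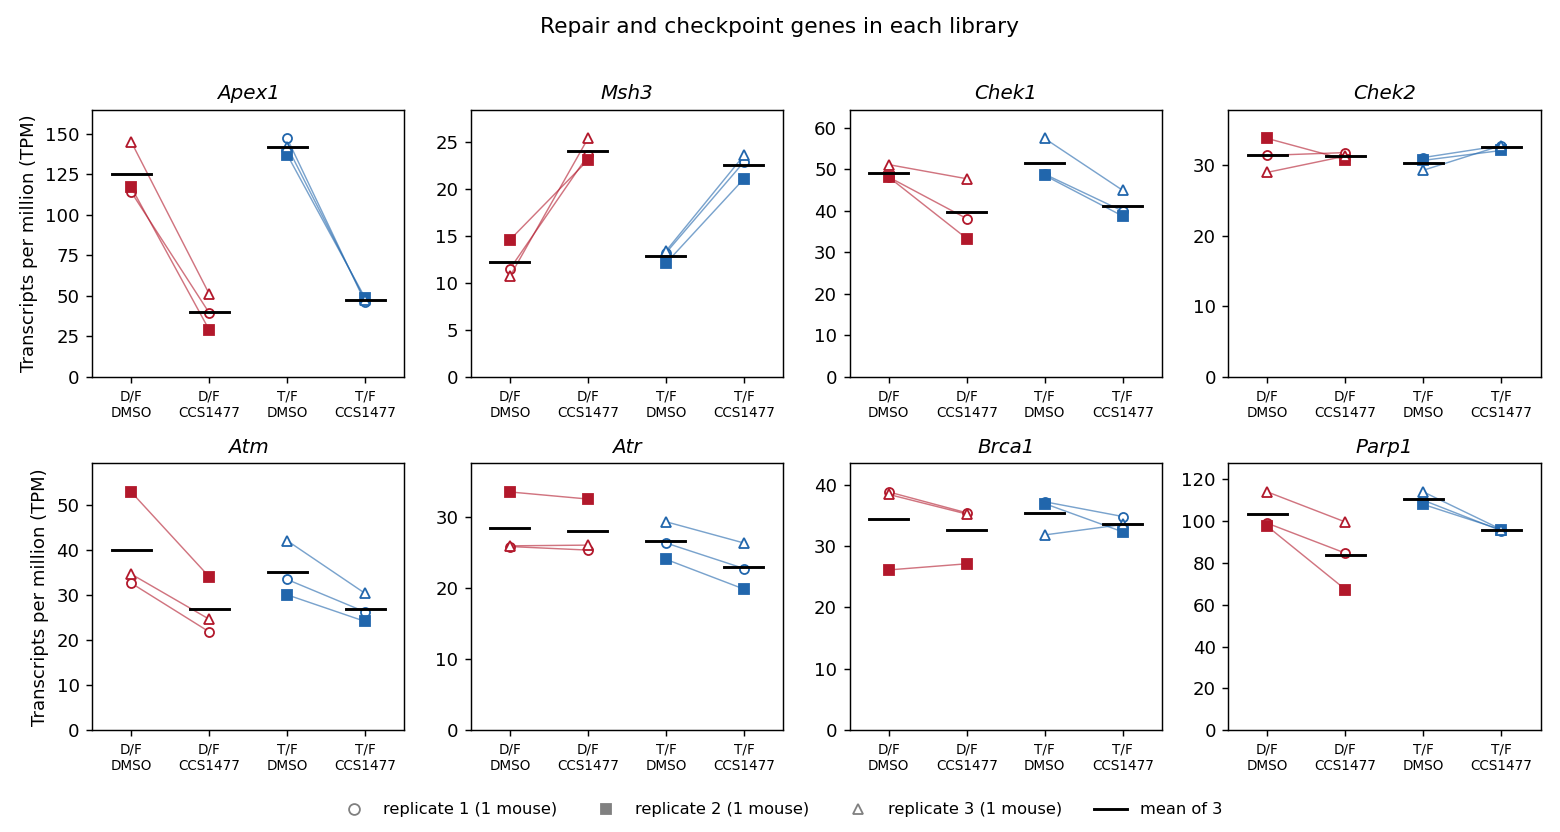
TPM of 8 genes in every library. Lines join the DMSO and CCS1477 cells of a mouse, symbols mark the replicate, and black bars are means of 3. *Apex1* falls and *Msh3* rises in each of the 6 mice with no overlap between treatments, *Chek1* falls with a smaller gap, and *Chek2*, *Atr* and *Brca1* overlap in *D/F*.

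The checkpoint kinases are Atm and Atr and the effectors they activate, Chek2 and Chek1, and no test compared one with another. *Chek1* (chr9:36708482-36727065, minus strand), the effector kinase downstream of Atr, stood at 48.1, 48.1 and 51.1 TPM under DMSO in *D/F* and at 38.1, 33.3 and 47.7 TPM under CCS1477. The *T/F* values were 48.8, 48.5 and 57.4 TPM and then 39.9, 38.7 and 44.9 TPM. The treated values lay below the DMSO values in both genotypes, in *D/F* by a margin of less than 1 TPM. *Chek1* fell in *T/F* by 0.32 ± 0.10 on the log2 scale (adjusted p = 0.0438 by limma), and the *D/F* change was −0.32 ± 0.17 (adjusted p = 0.278 by limma). The *T/F* call was lost without replicate 1 (adjusted p = 0.162) or replicate 2 (adjusted p = 0.166).

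*Chek2* (chr5:110839979-110874145, plus strand), the effector downstream of Atm, stood at 31.4, 33.8 and 29.0 TPM under DMSO in *D/F* and at 31.8, 30.8 and 31.3 TPM with the drug. In *T/F* it stood at 31.1, 30.7 and 29.3 TPM and then at 32.8, 32.1 and 32.8 TPM. The *D/F* groups overlapped and the *T/F* groups were apart by about 1 TPM. The log2 change was 0.00 in *D/F* (95% confidence interval −0.33 to 0.33) and 0.10 in *T/F* (−0.05 to 0.24), with adjusted p-values of 0.998 and 0.225 by limma.

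*Atm* (chr9:53439149-53536740, minus strand), the kinase activated by double-strand breaks, stood at 32.6, 52.8 and 34.6 TPM under DMSO in *D/F* and at 21.8, 34.0 and 24.6 TPM under CCS1477. *T/F* cells went from 33.4, 30.0 and 42.0 TPM to 26.2, 24.1 and 30.3 TPM. The groups overlapped in both genotypes because the mice differed, and every mouse had less *Atm* with the drug. The log2 change was −0.55 ± 0.26 in *D/F* (adjusted p = 0.206) and −0.37 ± 0.15 in *T/F* (adjusted p = 0.0947, both by limma). With the mouse as a block, *Atm* fell in both genotypes (adjusted p = 0.0147 and 0.0109 by limma). *Atr* (chr9:95857597-95951781, plus strand), the kinase that responds to stalled replication forks, stood at 25.9, 33.6 and 26.0 TPM in *D/F* and at 25.4, 32.6 and 26.1 TPM with the drug. The *T/F* level moved from 26.4, 24.1 and 29.4 TPM to 22.8, 19.9 and 26.4 TPM. The *D/F* libraries of each mouse stayed within 1 TPM or so of each other, and each *T/F* mouse had a lower treated value. The log2 change of *Atr* was −0.02 ± 0.18 in *D/F* (95% confidence interval −0.46 to 0.41) and −0.21 ± 0.13 in *T/F* (adjusted p = 0.948 and 0.238, and 0.0365 in *T/F* with the mouse as a block, all by limma).

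The subunits of the Mre11-Rad50-Nbn complex, which binds broken ends and activates Atm, went different ways. *Mre11a*, its nuclease, described after its values were seen, stood at 43.6, 43.2 and 47.6 TPM in *D/F* under DMSO and at 32.0, 24.9 and 34.8 TPM under CCS1477. The *T/F* values were 43.2, 45.1 and 44.7 TPM and, with the drug, 34.2, 33.6 and 35.3 TPM. Its groups were apart in both genotypes. The log2 change was −0.55 in *D/F* (adjusted p = 0.0895, and 0.0258 with the mouse as a block) and −0.36 in *T/F* (adjusted p = 0.00479, all by limma). *Rad50*, the ATPase subunit, had a change of −0.12 (*D/F*) and 0.04 (*T/F*), neither of which passed. *Nbn*, the adaptor subunit, rose by 0.32 in *T/F* (29.4 ± 0.514 to 37.0 ± 1.91 TPM, adjusted p = 0.0101 by limma) and had a change of 0.18 in *D/F* that did not pass. The *T/F* calls of *Mre11a* and *Nbn* were each lost without replicate 1 or replicate 2, with adjusted p-values by limma of up to 0.0695 and 0.0841. The mediators *Mdc1*, *Trp53bp1* and *Topbp1*, which gather repair factors at damaged chromatin or activate Atr, had log2 changes between −0.19 and 0.22, and none passed. Of the 10 genes of this group, 1 was higher and 2 were lower in *T/F*, near or below the 25.8% and 17.6% of all genes, and none was called in *D/F*.

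In homologous recombination, *Rad51c* had the largest rise. Its product takes part in the strand invasion step, and it was described after its values were seen. *Rad51c* (chr11:87376645-87404954, minus strand) stood at 5.79, 6.30 and 5.26 TPM in *D/F* and at 11.1, 7.83 and 13.1 TPM under CCS1477. *T/F* libraries held 4.29, 5.78 and 5.97 TPM under DMSO and 11.8, 10.7 and 11.9 TPM with the drug. All treated values were above all DMSO values. *Rad51c* in *T/F* rose from 5.35 ± 0.919 to 11.5 ± 0.651 TPM, a rise of the mean by 114%. On the log2 scale of TPM + 1, which understates changes of low genes, the rise was 0.98 ± 0.12 (adjusted p = 0.00212 by limma). In *D/F* the change was 0.76 ± 0.21 (adjusted p = 0.0637, and 0.0445 with the mouse as a block, both by limma), and it was 0.72 without *D/F* replicate 1 (adjusted p = 0.368), 1.00 without replicate 2 (adjusted p = 0.0199) and 0.55 without replicate 3 (adjusted p = 0.436, all by limma). *Exo1*, the exonuclease that resects broken ends, also chosen after its values were seen, went the other way. It stood at 17.9 to 20.7 TPM under DMSO and 11.4 to 16.9 under CCS1477 in *D/F*, and at 20.5 to 22.0 and 14.7 to 16 TPM in *T/F*. Its groups were apart in both genotypes, with a log2 change of −0.42 in *D/F* (adjusted p = 0.186, and 0.0424 with the mouse as a block) and −0.46 in *T/F* (adjusted p = 0.00308, all by limma).

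*Brca1* (chr11:101488764-101551955, minus strand), the ubiquitin ligase subunit that licenses recombination, stood at 38.8, 26.1 and 38.4 TPM under DMSO in *D/F* and at 35.4, 27.1 and 35.2 TPM under CCS1477. In *T/F* it stood at 37.2, 36.9 and 31.8 TPM and then at 34.8, 32.3 and 33.5 TPM. The treatments overlapped in both genotypes, and *D/F* replicate 2 was the lowest library with and without the drug. The log2 change was −0.07 in each genotype, with 95% confidence intervals of −0.58 to 0.45 in *D/F* and −0.27 to 0.14 in *T/F* (adjusted p = 0.874 and 0.545 by limma). Its partner *Bard1* had changes of 0.29 (*D/F*) and 0.17 (*T/F*) that did not pass within a genotype and rose over both (log2 change 0.23, adjusted p = 0.0171 by limma). *Brca2*, which acts on resected ends, changed by 0.10 and 0.08, neither of which passed. *Palb2*, the bridge between the Brca1 and Brca2 proteins, fell in *T/F* by 0.19 (adjusted p = 0.0437 by limma), a call that each left-out *T/F* mouse removed. *Rbbp8*, which encodes the resection factor CtIP, rose in *T/F* by 0.26 (39.2 ± 0.866 to 47.3 ± 0.782 TPM, adjusted p = 0.0124 by limma), again not without any 1 of the 3 mice. The helicase gene *Blm* and *Rad51ap1*, an accessory factor of strand invasion, had changes between −0.15 and 0.10.

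The 3 Fanconi anemia genes act on cross-links between DNA strands. In *T/F* 1 was higher and none lower, beside 25.8% and 17.6% of all genes, and none was called in *D/F*. *Fanca*, of the core complex, rose in *T/F* by 0.31 (56.7 ± 3.36 to 70.7 ± 1.32 TPM, adjusted p = 0.0128 by limma). In *D/F* it went from 53.9, 53.2 and 54.6 TPM to 69.2, 61.0 and 93.0 TPM, with no overlap and an adjusted p of 0.183 by limma. Leaving out any 1 *T/F* mouse ended the *T/F* call, with adjusted p-values from 0.0503 to 0.118 by limma. The clamp partners *Fancd2* and *Fanci* had changes between −0.05 and 0.13, and none passed.

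Of the 4 end joining genes, 1 was higher and 1 lower in *T/F*, beside 25.8% and 17.6% of all genes. None was called in *D/F*. *Lig4*, the DNA ligase of this route and, like the Ku genes, described after its values were seen, was the lowest of the 38 under DMSO. It stood at 3.73, 3.29 and 3.28 TPM in *D/F* and at 5.00, 3.88 and 6.66 TPM with the drug, and in *T/F* at 3.25, 2.84 and 3.38 TPM and then at 5.82, 5.53 and 5.61 TPM. The treated values were higher with no overlap. *Lig4* rose in *T/F* by 0.68 ± 0.07 on the log2 scale (adjusted p = 0.00134 by limma), and the *D/F* change was 0.46 ± 0.20 (adjusted p = 0.184 by limma). *Xrcc6*, which encodes Ku70, stood at 78.2, 116 and 87.1 TPM in *D/F* under DMSO and at 56.2, 73.5 and 65.7 TPM under CCS1477. The *T/F* values were 73.7, 72.2 and 83.2 TPM and, with the drug, 52.6, 47.3 and 59.5 TPM, with no overlap in either genotype. *Xrcc6* fell in *T/F* by 0.52 ± 0.11 (adjusted p = 0.0114 by limma), and its *D/F* change of −0.51 had an adjusted p of 0.154, or 0.022 with the mouse as a block, both by limma. The *T/F* call was lost without replicate 1 (adjusted p = 0.0835) or replicate 2 (adjusted p = 0.0691). *Xrcc5*, which encodes Ku80, its partner in a heterodimer, was listed at 3.10 to 11.1 TPM over all 12 libraries, far below *Xrcc6* at 47.3 to 116 TPM, both per transcript length. *Xrcc5* had a log2 change of −0.44 (*D/F*) and −0.25 (*T/F*) that did not pass, and the block gave an adjusted p of 0.0224 (*D/F*) and 0.0744 (*T/F*) by limma. *Prkdc*, the kinase that Ku recruits, changed by −0.05 and −0.08, and neither passed.

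In nucleotide excision repair, which removes bulky lesions, *Xpc*, the damage recogniser, had log2 changes of −0.34 and −0.39. These did not pass (adjusted p = 0.497 and 0.0602), and with the mouse as a block *Xpc* fell in both genotypes (adjusted p = 0.038 and 0.00841, all by limma). *Ercc1*, of the nuclease that cuts beside the lesion, changed by 0.31 and 0.25, which did not pass within a genotype, and rose over both (log2 change 0.28, adjusted p = 0.0331 by limma). The helicase gene *Ercc2* and *Rad18*, the ubiquitin ligase that starts translesion synthesis, had changes between −0.16 and 0.18 that did not pass, except that *Rad18* had an adjusted p of 0.047 in *T/F* with the mouse as a block.

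Many of these genes start close to a neighbor transcribed the other way. Compared here were 12 pairs whose starts lie within 1000 bp in the GENCODE annotation of GRCm38 and which both have a row in the table. Over both genotypes, in the fit without the block, member and neighbor were both called in 3 pairs, each time in the same direction. The member alone was called in 2, the neighbor alone in 1 and neither in 6, among them *Xpc*, which the block called. In the same fit 25.8% of all genes were called higher and 19.6% lower. In 3 pairs the log2 changes lay more than 0.5 apart, among them the pair with the largest change. *Apex1* and *Osgep*, which encodes a tRNA-modifying enzyme, start 75 bp apart, and *Osgep* stood at 49.9 and 58.3 TPM in *D/F* and at 54.1 and 57.7 TPM in *T/F* (means under DMSO and CCS1477). Its log2 change over both genotypes was 0.16 (adjusted p = 0.118 by limma), beside −1.61 for *Apex1* (adjusted p = 3.22e-06 by limma). *Brca1* and the autophagy receptor gene *Nbr1*, which start 194 bp apart across the stretch printed above, showed the reverse. *Nbr1* rose by 0.76 on the log2 scale over both genotypes (adjusted p = 0.00111 by limma), being higher in 6 of 6 mice, where *Brca1* had a change of −0.07. *Pms2* and *Aimp2*, 117 bp apart, were −0.23 and −0.90, and both fell. *Mre11a* and *Ankrd49*, 202 bp apart, were −0.45 and −0.78, and both fell as well. *Lig4* and *Abhd13*, 21 bp apart, rose together by 0.57 and 0.19.

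**Figure D3:**
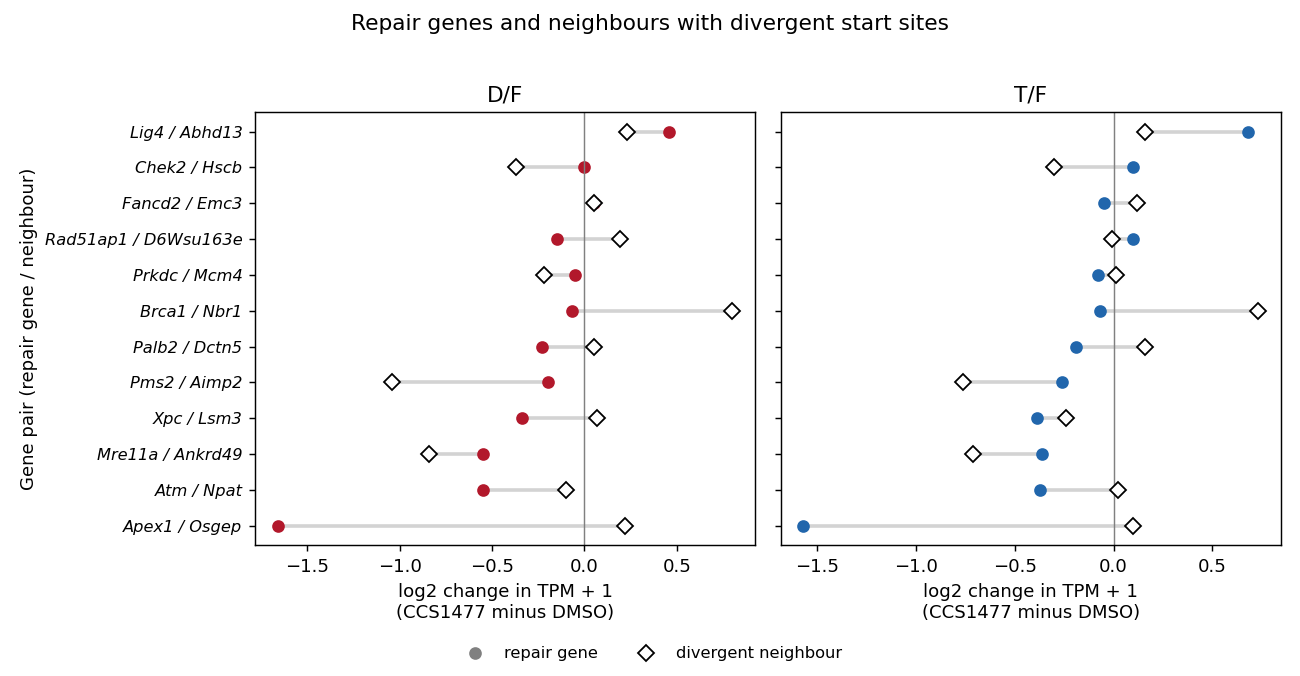
Log2 change in TPM + 1 under CCS1477 of 12 repair genes (circles) and of the neighbor with a divergent start within 1000 bp (open diamonds), in *D/F* and *T/F*, as means of 3 mice without error bars. The grey bars are long for *Apex1* with *Osgep* and for *Brca1* with *Nbr1* and short for *Fancd2* with *Emc3*, in both genotypes.

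Exons on the opposite strand overlap those of some of these genes. *Ercc1* overlaps *Cd3eap*, a subunit of RNA polymerase I, which fell over both genotypes (log2 change −1.03, adjusted p = 1.7e-05 by limma) while *Ercc1* rose. The library kit keeps the strand, but whether the quantification used it is not given in the sources used here, so reads shared by such a pair may not be told apart. The same holds for *Mre11a* with *Ankrd49*, which both fell, and for *Apex1* with *Pip4p1*, *Msh6* with *Fbxo11* and *Fanci* with *Polg*, of which *Pip4p1*, *Fbxo11* and *Polg* rose over both genotypes.

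In the comparisons of the genotypes none of the 38 genes passed. For the difference between the responses, the *T/F* minus the *D/F* change, none of the 38 was called by limma and, without the block, none had an unadjusted p under 0.05, where 0% and 4.23% of all genes did. The same was true of *T/F* against *D/F* under DMSO (0 and 0 of 38, beside 0.0328% and 6.15% of all genes) and under CCS1477 (0 and 0 of 38, beside 0.0329% and 10.8%). Under the alternatives the number of the 38 with an unadjusted p under 0.05 reached 2 for the difference between the responses, with the mouse as a block and also without *D/F* replicate 2. It reached 2 for the genotypes under DMSO, without *D/F* replicate 2, and 5 under CCS1477, without *D/F* replicate 3. A count of 0 does not show that the levels were equal. The 95% confidence intervals of the difference between responses reached from −0.86 (*Xrcc5*) to 1.54 (*Ung*) on the log2 scale over the 38 genes. Those of the DMSO comparison reached from −0.85 (*Trp53bp1*) to 0.77 (*Xrcc5*), and all 38 of them lay within a 2-fold change. Over the 38 genes the log2 changes of the 2 genotypes, which share no library, had a Pearson r of 0.936 and a Spearman rho of 0.896, a description across genes that are not independent replicates. The sign was the same for 32 genes and opposite for 6, all 6 of them not called in either genotype. *Ung* had the largest difference between the responses, 0.64, with an adjusted p of 1 by limma, and this value rested on *D/F* replicate 2, without which it was 0.19 (adjusted p = 0.926 by limma).

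One *D/F* mouse stood apart from the others. Across all genes, the libraries of *D/F* replicate 2 were correlated with those of the other *D/F* mice at 0.947 to 0.958, where the other pair reached 0.978 and 0.983 and the *T/F* pairs 0.978 to 0.991. In that mouse *Trp53bp1* stood at 84.3 TPM under DMSO and at 90.8 TPM under CCS1477, beside 37.1 to 50.9 TPM in the other *D/F* libraries. The median coefficient of variation of the 38 genes was 12.2% and 15.7% in the *D/F* groups (DMSO and CCS1477) and 5.37% and 5.14% in the *T/F* groups. Among 34 genes of replication in S phase, the summed level in that mouse was 3200 TPM under DMSO and 2520 TPM under CCS1477, beside 3900 and 4040 TPM and 4310 and 4750 TPM in the other *D/F* mice, and 3990 to 4580 TPM in *T/F*. The part of this mouse's cell cycle or composition in the results was not tested. Without this mouse, *Msh3* and *Apex1* stayed called in *D/F*.

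**Figure D4:**
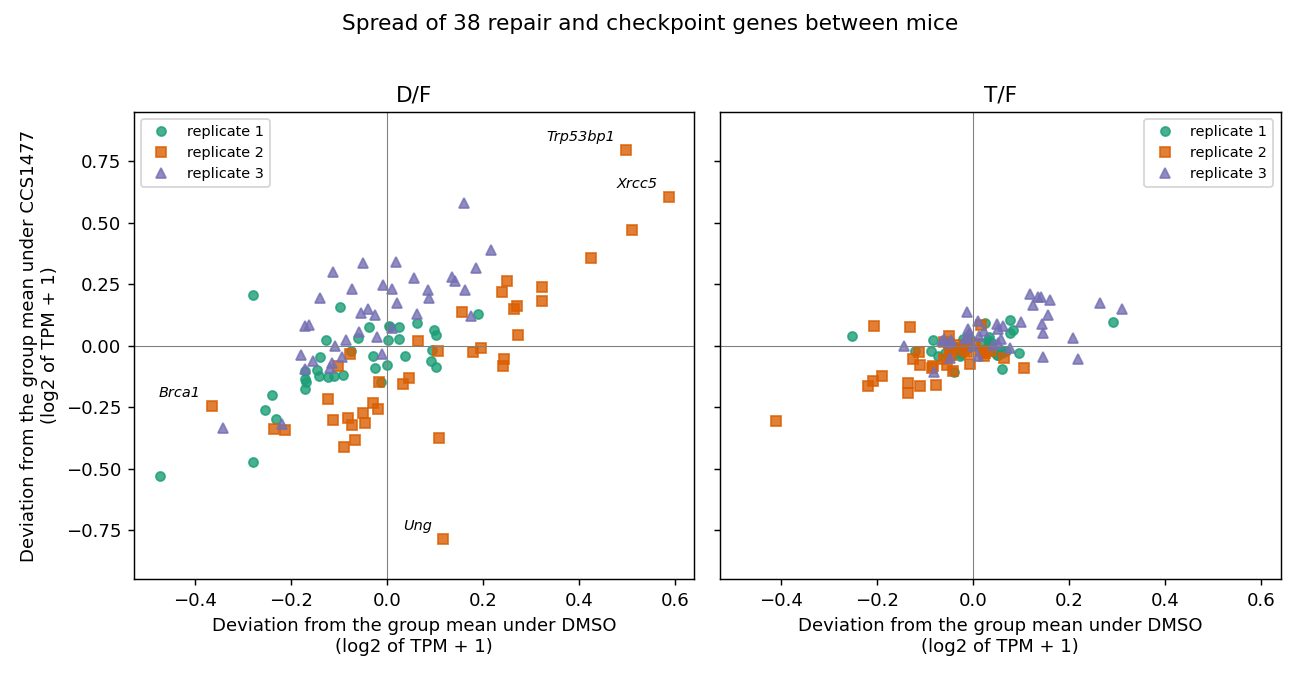
Deviation of each of the 38 genes from its group mean, on the log2 scale of TPM + 1, under DMSO (horizontal) and CCS1477 (vertical), for 3 *D/F* mice and 3 *T/F* mice. Points near the rising diagonal keep their rank in both treatments, the *D/F* points spread more widely than the *T/F* points, and *Trp53bp1* and *Xrcc5* of *D/F* replicate 2 lie farthest up and to the right.

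The c-Kit enriched cells held markers of AML blasts and of mature neutrophils. All 6 markers listed for AML blasts (*Kit*, *Flt3*, *Cd34*, *Cd33*, *Myb* and *Mpo*) had a row, and their summed level ranged from 1830 to 4220 TPM under DMSO and from 492 to 1730 TPM under CCS1477. Of the T cell markers 2 of 6, of the B cell markers 2 of 5 and of the erythroid markers 5 of 6 had a row, with sums of 10.5 to 37.3, 4.13 to 23.2 and 10.8 to 31.5 TPM over all libraries. The 7 markers of mature neutrophils summed to 1630 to 9380 TPM, above the sum of the AML blast markers in 12 of 12 libraries. *D/F* replicate 2 had the lowest neutrophil sum in *D/F* in both treatments. Its AML blast sum was also the lowest there, at 2250 TPM under DMSO and 492 TPM under CCS1477. Its T cell (37.3 and 16.4 TPM), B cell (23.2 and 9.54 TPM) and erythroid sums (31.5 and 25 TPM) were the highest in *D/F*. The part of these cell types in the changes of the repair genes was not tested. The targeted genes did not mark every library by their level: *Dnmt3a* stood at 29.3 to 55.7 TPM in *D/F* and 39.9 to 57.2 in *T/F*, and *Tet2* at 32.5 to 43.4 and 24.6 to 35.8 TPM. A level over a whole gene need not reflect the deleted exons.

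Beyond the 38, 115 of 116 further repair and checkpoint genes had a row. In *D/F* 8 were higher and 4 lower, where 5.14% and 6.51% of all genes were, and in *T/F* 36 were higher and 20 lower, where 25.8% and 17.6% were. Their median log2 change was 0.09 and 0.11, beside 0.06 and 0.07 over all genes. Called in both genotypes and higher in all 6 mice were 8 of them, of which the 5 with the largest smaller change were *Polm*, *Ercc5*, *Ddb2*, *Cdc25c* and *H2afx*. *Polm*, a polymerase of end joining, rose. Its *D/F* means were 3.31 ± 1.41 TPM under DMSO and 11.4 ± 3.77 TPM under CCS1477, and its *T/F* means 3.67 ± 1.39 and 12 ± 2.05 TPM (log2 change 1.52 and 1.51, adjusted p = 0.0332 and 0.00503 by limma). *Ercc5*, the nuclease of nucleotide excision repair that cuts on the side opposite to Ercc1, rose by 1.45 and 0.90. *Ddb2*, which recognises ultraviolet lesions, rose by 0.94 and 0.90, and *Cdc25c*, the phosphatase that opens mitosis, by 0.69 and 0.87. *H2afx*, the histone variant phosphorylated at breaks, rose as well, with *D/F* means of 313 ± 47.0 and 586 ± 37.2 TPM and *T/F* means of 366 ± 12.9 and 565 ± 30.3 TPM (log2 change 0.91 and 0.62).

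The falls that met the same rule were 4. *Lig3*, the ligase that works with Xrcc1, fell, with *D/F* means of 49.0 ± 4.81 and 26.5 ± 2.14 TPM and *T/F* means of 47.3 ± 2.43 and 31.7 ± 3.07 TPM (log2 change −0.86 and −0.56, adjusted p = 0.0225 and 0.00474 by limma), where *Xrcc1* itself did not pass. *Wee1*, the kinase that restrains entry into mitosis, fell, with log2 changes of −0.83 and −0.51. *Trp53*, which encodes p53, fell (−0.77 and −0.52), as did *Cdk7*, a kinase of the transcription and repair factor TFIIH (−0.74 and −0.70). *Wee1* and *Cdc25c* set the phosphorylation of the same mitotic kinase in opposite senses, and their transcripts moved in opposite directions. Of 15 p53 target genes with a row (16 listed), none was higher and 2 were lower in *D/F*, and 4 were higher and 2 lower in *T/F*, against the same shares of all genes (5.14% and 6.51%, 25.8% and 17.6%). The change was positive for 11 of the 15 in *D/F* and 9 of the 15 in *T/F*. *Trp53inp1*, a stress-response gene chosen after its values were seen, rose above 2-fold in *T/F* (log2 change 1.54, adjusted p = 0.000242 by limma) and had a *D/F* change of 1.72 that did not pass (adjusted p = 0.0954 by limma). *Aen*, an exonuclease gene, fell with log2 changes of −1.80 and −1.59, and *Plk3*, a stress-response kinase gene, with −1.14 and −1.23. Of the 34 S-phase genes, 1 was higher and none lower in *D/F*, and 11 were higher and 3 lower in *T/F*, beside those shares. *Slbp*, the histone mRNA binding protein, was the one called higher in both, with log2 changes of 0.89 and 0.67.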

How the data were processed

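RNA sequencing covered 12 libraries, CCS1477 and DMSO cultures of 6 mice (3 *D/F*, 3 *T/F*). The authors deposited TPM per Ensembl gene, linear and one column per library, labelled as kallisto output on mm10 and processed with AltAnalyze. The kallisto version, index and settings are not given in the sources used here. Every gene reaches 2.00 TPM in a library, so low genes had been left out, and libraries sum to 914204 to 931697 TPM. Since TPM holds no read numbers, depth is unknown, and precision is the spread between 3 mice.

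Tests used limma 3.58.1 (R 4.3.3) on log2(TPM + 1), eBayes without trend, two-sided, with Benjamini-Hochberg adjustment over all genes whose mean reached 1 TPM in a compared group. Fold changes on this scale understate those of low genes. Comparisons were CCS1477 against DMSO by genotype and over both with genotype as covariate, the genotypes within each treatment, and the difference of responses in a fit of 4 groups. Exact permutation tests of 3 against 3 cannot go below 0.1. Called means an adjusted p under 0.05. The fits were also run on simulated data with no mouse effect and with planted changes larger than any of these genes showed. Such data do not show how well smaller changes are called.

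The sample records give the same mouse number to both treatments. For *D/F* replicate 3 a column carries another mouse number in the paper's supplementary data, and the deposited column name was used. Deviations from group means were correlated at 0.527, 0.655 and 0.531 (*D/F*) and 0.367, 0.34 and 0.478 (*T/F*) within mice, and at most at 0.132 between mice, so the fit with the mouse as a block is given where it changes a call. No 2 libraries were identical.

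The 38 genes and the lists were chosen with earlier results of these data known. Full values go to genes called in both genotypes or above 2-fold, to any gene called in a genotype test and to *Chek1*, *Chek2*, *Atm*, *Atr*, *Brca1* and *Parp1*. In other lists up to 5 rises and 5 falls are named, ranked on the weaker of their *D/F* and *T/F* changes, if called in both and moving alike in 6 mice. Positions are from GENCODE vM21 and promoters from RefSeq, both on GRCm38, the same assembly as mm10. Of the 38 genes, 31 had a promoter entry. Alternatives were pseudocount 0.1, filters at 5 TPM and at none, scaling to the median gene, quantile normalization, eBayes with trend, the block, a shared fit and leaving out each mouse. A gene pair at 1 of the divergent starts is not reported here.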

Additional observations from a re-analysis of the deposited data

Results flagged for a closer look

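*Rad51ap1*, an accessory factor of homologous recombination, was picked out because the mice of the genotypes moved in opposite directions. Under CCS1477 it was lower in 3 of 3 *D/F* mice and higher in 3 of 3 *T/F* mice. The *T/F* change exceeded the *D/F* change by 0.25 on the log2 scale. The test of that difference gave an adjusted p of 1 by limma, and neither genotype's own change passed (−0.15 in *D/F*, adjusted p = 0.684, and 0.10 in *T/F*, adjusted p = 0.368).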

How the results depend on the processing

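The counts of calls moved with the setting in both genotypes, and so did those over all genes. Of the 38 genes, 2 were higher in *D/F* with a filter at 5 TPM, 2 higher and 7 lower with the mouse as a replicate block, and 6 higher and 5 lower in 1 shared fit of 4 groups. Over all genes the filter gave 994 higher of 12237 tested, and the block 3312 higher and 2786 lower of 15501. The shared fit gave 2706 higher and 2234 lower of 15501. Leaving out each *D/F* mouse gave 0 to 2 higher and 0 to 2 lower, beside 0 to 2092 and 0 to 1647 over all genes. In *T/F*, scaling to the median gene gave 4 higher, the shared fit 3 higher and 3 lower, and leaving out each mouse 3 to 5 higher and 2 to 7 lower. Over all genes, of 15189 to 15256 tested, scaling gave 3139 higher and the shared fit 2112 higher and 1601 lower. Leaving out each mouse gave 1748 to 2921 higher and 1444 to 2201 lower over all genes. The median log2 change of the 38 genes in *T/F* was −0.09 after scaling to the median gene. With that scaling the count higher over both genotypes was 5, beside 23.2% of all genes. Changes near 0 that were not called turned sign. In *D/F*, *Topbp1* did so with quantile normalization (0.01), and leaving out each mouse gave −0.18 to 0.05 for *Topbp1*, −0.06 to 0.06 for *Chek2*, −0.12 to 0.01 for *Prkdc*, −0.02 to 0.10 for *Fancd2* and −0.10 to 0.16 for *Rad18*. In *T/F* these were *Rad50* (−0.04), *Mdc1* (−0.05), *Topbp1* (−0.03) and *Parp2* (−0.05) after scaling, and leaving out each mouse did so for *Mdc1* (−0.02 to 0.07), *Trp53bp1* (−0.06 to 0.07) and *Xrcc1* (−0.05 to 0.02). Of the values computed gene by gene, 389 of 418 in *D/F* and 356 of 418 in *T/F* kept their direction and their side of the threshold. These shares do not measure how firm the calls were. In *D/F* 36 of the 38 genes were not called to begin with. Without *D/F* replicate 1 or replicate 3 no gene of the table was called, so these 36 kept their side there and the 2 *D/F* calls were lost. No called gene turned sign. The filters, eBayes with trend, the block and the shared fit cannot alter a log2 change in this design, so they could not turn a sign. The causes were not tested.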
